A study of Rattus norvegicus with 6 samples.

Results

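The genes described here encode the respiratory chain and ATP synthase, together with assembly factors that share their symbol prefixes, in the renal cortex of rats given N-nitrosodimethylamine (NDMA). Members were the array probes annotated to a RefSeq transcript of a gene whose symbol starts with Ndufa, Ndufb, Ndufc, Ndufs, Ndufv, Sdh, Uqcr, Cox4 to Cox8 or Atp5, kept where every array of the control group, or every array of the NDMA group, flagged the probe as well above background (3 arrays each). This name rule matched 150 probes of 85 genes, and 147 probes of 84 genes were kept, among 31915 genes or unnamed features tested in all. Cox8c, the testis form of a complex IV subunit, was the gene lost, and 1 of the 2 probes of Uqcrq was also not well above background on any array. The 84 genes were 33 of complex I, 4 of complex II, 8 of complex III, 16 of complex IV, 15 of the ATP synthase and 8 assembly factors (Ndufaf and Sdhaf genes). The prefixes place Ndufa4 with complex I, although it is now regarded as a complex IV subunit, and 1 member, Cox6c-ps1, is a transcribed pseudogene.

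The animals were male rats of the Sprague-Dawley strain, purchased at an age of 5 weeks. Both groups ate the same basal diet, and 3 animals received water (control) while the other 3 received NDMA at 4 mg/kg/day, each for 4 weeks. NDMA is a nitrosamine whose metabolic product adds methyl groups to DNA, and the comparison asks how its intake changed transcript levels in the kidney cortex. Total RNA of each animal was labelled with Cy3 and read on a 1-colour Agilent array, with 1 array per animal.

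Oxidative phosphorylation moves electrons from NADH (through complex I) or succinate (through complex II) to ubiquinone, on to cytochrome c through complex III, and to oxygen through complex IV. Complexes I, III and IV pump protons across the inner mitochondrial membrane, and the ATP synthase lets them flow back while it makes ATP. Most subunits come from nuclear genes and a few from mitochondrial DNA. The symbol prefixes take in nuclear genes only, so all members are nuclear by the rule. No probe was matched by name to a mitochondrially encoded gene, so those subunits are not described. In the renal cortex the proximal tubule is rich in mitochondria, because reabsorption of filtered solutes relies on ATP.

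Promoters of nuclear respiratory genes are known to hold sites of NRF-1 and of GABP (also called NRF-2), so the promoters of the member with the lowest difference in each complex among those with such a motif are shown as examples of these motifs. Of the 74 members with a promoter in the table, 34 held a motif of NRF-1, GABP or YY1, so most held none. These examples and their display were chosen after the values were seen. Each line is the 150 bases before the annotated transcript start, 5′ to 3′ on the gene's strand, from RefSeq on assembly GRCr8, and capitals mark an NRF-1 or GABP motif on either strand. The windows are Ndufv3 at chr20:9613636-9613785 (+ strand), Sdhb at chr5:158547784-158547933 (+ strand), Uqcrc1 at chr8:118468073-118468222 (+ strand), Cox8a at chr1:213833624-213833773 (- strand) and Atp5f1a at chr18:73567387-73567536 (+ strand).
Ndufv3: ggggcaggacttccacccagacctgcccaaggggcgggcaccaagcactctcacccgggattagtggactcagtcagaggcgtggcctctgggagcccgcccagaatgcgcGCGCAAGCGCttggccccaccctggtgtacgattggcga
Sdhb: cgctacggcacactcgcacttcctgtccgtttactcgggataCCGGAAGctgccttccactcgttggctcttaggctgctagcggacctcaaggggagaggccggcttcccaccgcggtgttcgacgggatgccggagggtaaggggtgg
Uqcrc1: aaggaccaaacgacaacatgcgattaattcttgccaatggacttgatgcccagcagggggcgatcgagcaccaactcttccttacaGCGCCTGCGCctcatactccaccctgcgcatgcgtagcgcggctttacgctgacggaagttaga
Cox8a: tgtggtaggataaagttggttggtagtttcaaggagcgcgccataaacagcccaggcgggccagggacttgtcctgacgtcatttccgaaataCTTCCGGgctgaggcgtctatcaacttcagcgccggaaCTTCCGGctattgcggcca
Atp5f1a: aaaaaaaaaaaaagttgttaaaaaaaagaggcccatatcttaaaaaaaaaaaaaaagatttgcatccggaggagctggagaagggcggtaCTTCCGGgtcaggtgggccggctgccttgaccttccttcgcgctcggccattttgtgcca

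Of the 84 members, 74 had a promoter in the RefSeq table, and the 250 bases before the start were searched on both strands. The NRF-1 motif (GCGCA, then any base, then GCGC) occurred in 12 of the 74 (16.2%), against 7.70% of the 10431 promoters of genes tested here and 3.75% of all 33469 promoters. The GABP motif CCGGAAG occurred in 23 (31.1%), against 13.6% of the promoters of tested genes and 7.27% of all. The YY1 motif AAGATGGC occurred in 2 members (2.70%, against 2.02% and 1.63%), and the ERR motif TNAAGGTCA in 0 of 74 (against 0.537% and 1.04%). Because the NRF-1 motif is nearly its own reverse complement, a single stretch often matched on both strands and was counted once per promoter. The median log2 difference between NDMA and control was -0.19 in members with the NRF-1 motif and -0.16 in those without, and -0.16 with the GABP motif and -0.17 without. These matches describe letters in a window and not binding.

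Signals were scaled by each array's 75th percentile and taken to log2, so a value of 0 is a signal equal to that percentile, and values of different probes are not compared with each other. Differences are NDMA minus control on this log2 scale, with the moderated standard error (SE) of limma, 3 animals per group and Benjamini-Hochberg adjustment over all 31915 features at a threshold of 0.05. Over the whole array 957 features passed (3% of those tested), with 805 higher (2.52%) and 152 lower (0.476%) in the NDMA animals. With normexp background correction 732 were higher and 361 lower. With 3 animals a group the smallest p of an exact permutation test is 0.1 (two-sided), and single genes were not tested that way. The 3 controls and NDMA animal 1 shared slide 1, and NDMA animals 2 and 3 were on slide 2. The 75th percentile signal was between 993 and 1053 on slide 1 and 1299 and 1310 on slide 2.

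No member passed the threshold: 0 of 84 were called (background 3%), with a smallest limma adjusted p of 0.129. Differences were small and mostly on one side. They were below 0 in 78 of 84 members (92.9%), against 58.7% of all features, with a median of -0.17 (0.889 of the control signal) against -0.05 over all features. They ranged from -0.31 for Uqcrc1 to 0.12 for Cox5a. At an unadjusted p under 0.05 there were 19 members (22.6%), all lower, against 18.8% of all features, 10.3% lower and 8.5% higher. These 19 were 5 of complex I, 2 of complex II, 5 of complex III, 3 of complex IV, 3 of the ATP synthase and 1 assembly factor. The NDMA animals were all below the controls in 48 members (57.1%), against 16.5% of all features, and all above them in 1, the assembly factor Ndufaf4 (background 11.1%). Of the 95% intervals of the single differences, 0 reached 2-fold and 2 reached 1.5-fold, those of Cox8b and Sdhaf1.

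**Figure D1:**
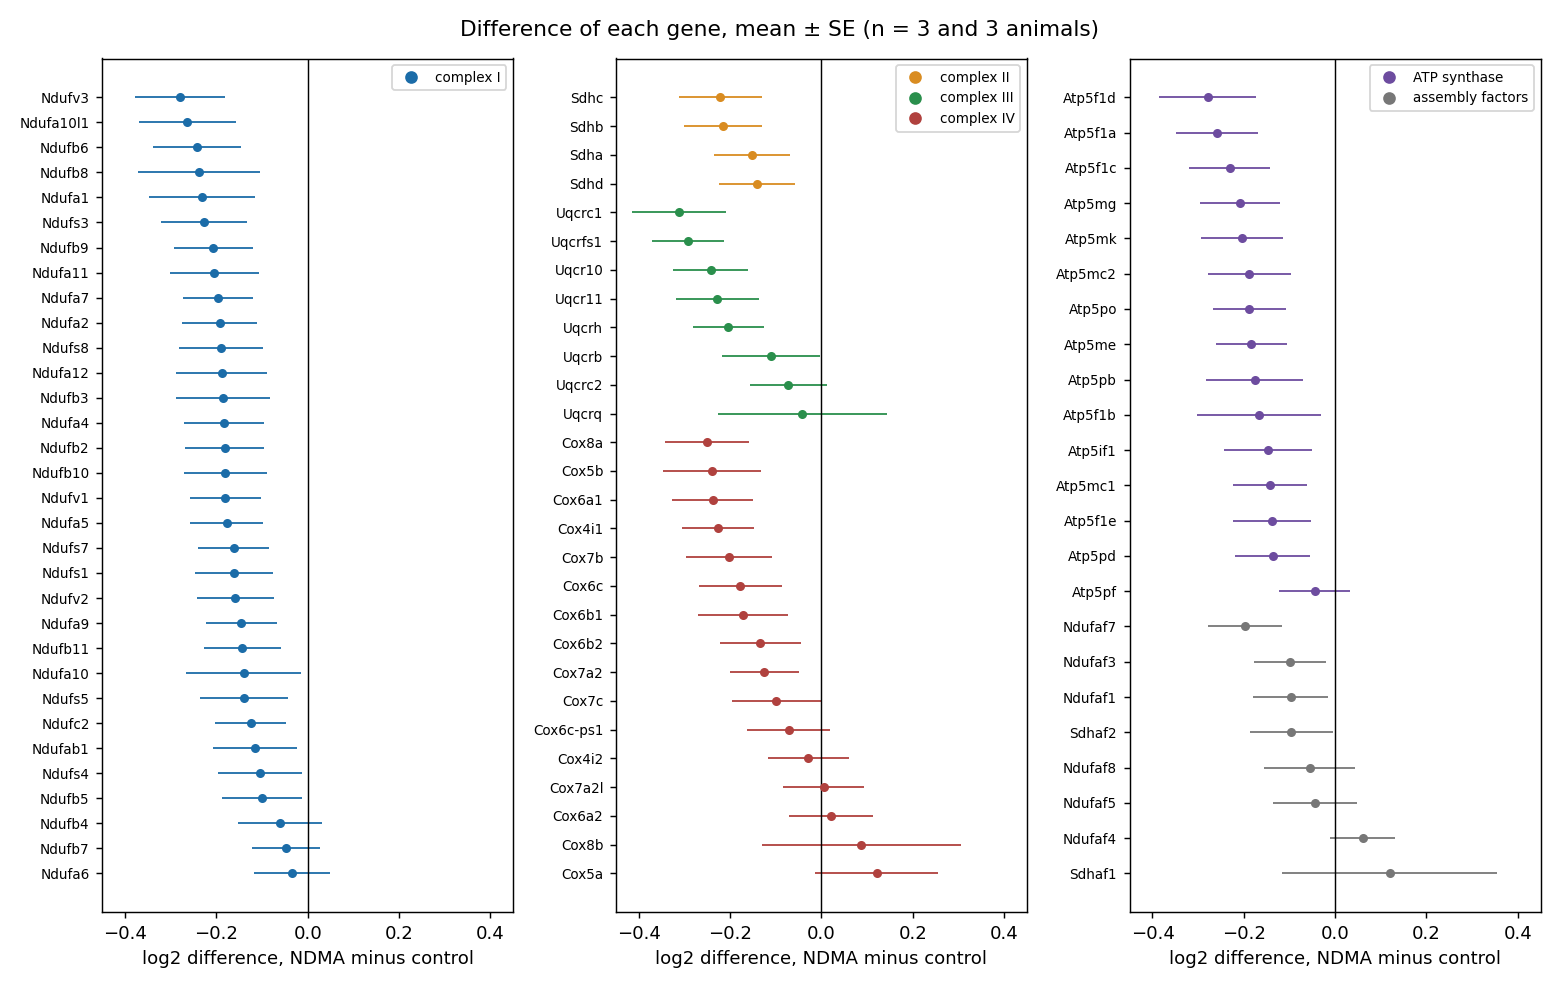
Log2 difference between NDMA and control (x axis) for 83 of the 84 members, ordered within each complex, with bars for 1 moderated SE (3 animals per group). Points lie left of 0 for 77 of them, from -0.31 for Uqcrc1, and the 6 to the right reach 0.12.

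The lower values were seen in each NDMA animal. Measured from the mean of the controls, the median over the 84 members was 0.004, 0.06 and -0.06 in control animals 1, 2 and 3, and -0.09, -0.19 and -0.19 in NDMA animals 1, 2 and 3. The animals of the groups did not overlap in this median. The median over all features did not overlap either, with smaller values: -0.008, 0.006 and 0.003 in controls and -0.026, -0.045 and -0.053 in NDMA animals. The members moved together within an animal: control animal 2 was the highest control for 63 members and control animal 3 the lowest for 70. NDMA animal 1, on slide 1 with the controls, was the highest of the NDMA animals for 63 of 84 members. It was below the control mean for 73 members and below every control for 55. With slide 1 alone or with slide as a block the median over the members was -0.09, 73 of 84 were below 0 (background 55%), and 0 had an unadjusted p under 0.05 (background 11% on slide 1 alone and 10% with the block). Slide 2 held no control, so both settings gave the same differences, which rest on NDMA animal 1 alone. Slide moved with the size of the difference, and its part in it was not tested beyond these values.

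**Figure D2:**
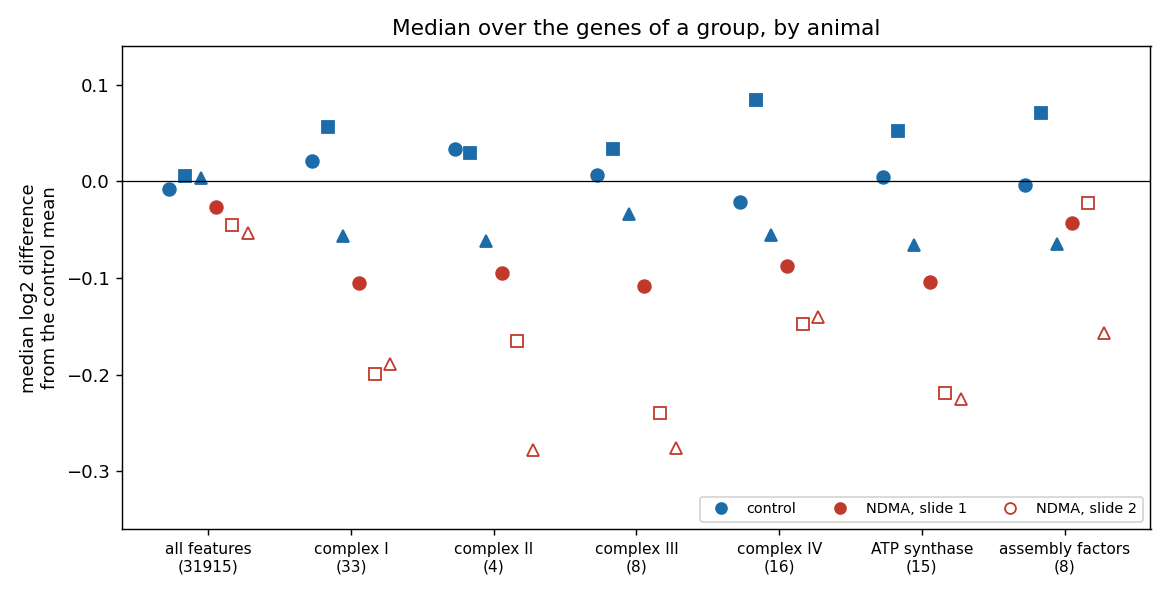
Median log2 difference from the control mean (y axis) over the genes of each group, 1 point per animal, with the number of genes in brackets and open symbols for animals on slide 2. NDMA animals lie below all controls over all features, in each complex and in the ATP synthase, and overlap with the controls in the assembly factors. NDMA animal 1 lies nearest to the controls over all features, in the 4 complexes and in the ATP synthase.

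Signal strength also moved with the difference. Over all features the median difference was between -0.03 and -0.04 at signals up to 2, -0.09 at signals of 5 to 6, -0.13 at 6 to 7, -0.14 at 7 to 8 and -0.23 above 8. Members were mostly bright, with 61 of 84 above a mean signal of 5. Of these 61, 60 were below 0 with a median of -0.18, against -0.12 over all 1628 features above 5, of which 70% were below 0. Their groups did not overlap, with NDMA lower, in 41 of 61 (67.2%), against 37.2% of the 1628. Quantile normalisation, which by construction gives every array the same distribution of signals, left a median of -0.02 over the 1628 features and -0.08 over the 61 members, with 52 of the 61 still below 0. Over all 84 members it left a median of -0.07, 68 below 0 (81.0%, against 57.3% of all features), 4 at an unadjusted p under 0.05 (4.76%, against 19.1%), and 29 without overlap and lower (34.5%, against 15.3%).

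**Figure D3:**
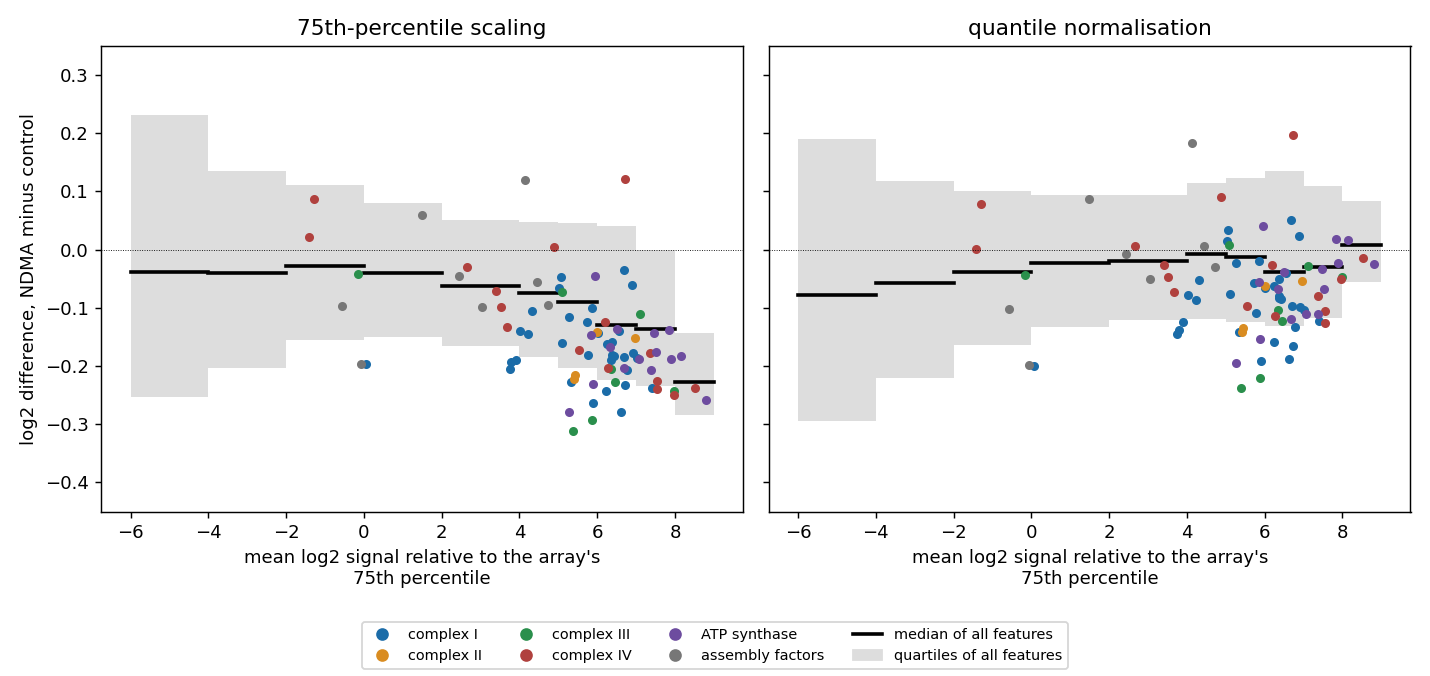
Log2 difference between NDMA and control (y axis) against mean log2 signal (x axis) for the 84 members, coloured by complex, over the median and quartiles of all features in bins of signal. With 75th-percentile scaling the median of all features declines to -0.23 above a signal of 8 and most members lie below it or near it, and with quantile normalisation the median of the 84 members is -0.07.

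Complex I, the NADH dehydrogenase, had all 33 members below 0, with a median of -0.18, and 0 called. The background, here and for the complexes below, was 58.7% of all features below 0, 70% of those above a signal of 5, and 3% called. In complex I, NDMA was lower without overlap in 21 of the 33, against 16.5% of all features and 37.2% of those above a signal of 5. With quantile normalisation 29 of the 33 were below 0. Its lowest difference was in Ndufv3, an accessory subunit of the NADH-binding arm, with 6.70, 6.87 and 6.70 in controls and 6.61, 6.42 and 6.41 after NDMA (-0.28 ± 0.10, limma adjusted p = 0.21). All 3 NDMA animals were below all controls. The other 3 probes of Ndufv3 gave -0.23, -0.43 and -0.44. Ndufb6, a subunit of the membrane arm, read 6.38, 6.38 and 6.30 in controls and 6.27, 6.02 and 6.04 after NDMA (-0.24 ± 0.10, adjusted p = 0.254). Its groups did not overlap either, and animal 1 was nearest to the controls. Ndufa7, another accessory subunit, read 0.16, 0.23 and 0.09 against -0.03, -0.04 and -0.05 (-0.20 ± 0.08, adjusted p = 0.248). Its groups did not overlap. Ndufa10l1, a second gene of the Ndufa10 family, read 6.11, 6.13 and 5.86 against 5.85, 5.68 and 5.77 (-0.26 ± 0.11, adjusted p = 0.256), while Ndufa10 itself overlapped between groups (-0.14 ± 0.13). The probes of near-identical copies may share signal.

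Core subunits of complex I were also below 0. Of these nuclear subunits, which carry the flavin and iron-sulphur centres or line the ubiquinone site, Ndufs1 was at -0.16, Ndufs3 at -0.23, Ndufs7 at -0.16, Ndufs8 at -0.19, Ndufv1 at -0.18 and Ndufv2 at -0.16. Ndufs1, which carries several iron-sulphur centres, read 5.21, 5.18 and 5.14 in controls and 5.13, 4.94 and 4.99 after NDMA (adjusted p = 0.358). Its groups did not overlap. Groups overlapped in Ndufa6, Ndufb4 and Ndufb7, whose differences of -0.03, -0.06 and -0.05 were the nearest to 0 in the complex. Ndufa4 had -0.18 and Ndufab1, the mitochondrial acyl carrier protein, -0.12.

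Complex II, the succinate dehydrogenase shared with the citric acid cycle, had 4 of 4 members below 0 with a median of -0.18. The iron-sulphur subunit Sdhb read 5.59, 5.56 and 5.50 in controls and 5.43, 5.33 and 5.24 after NDMA (-0.22 ± 0.08, limma adjusted p = 0.247). The membrane anchor Sdhc read 5.55, 5.60 and 5.41 against 5.35, 5.33 and 5.21 (-0.22 ± 0.09, adjusted p = 0.262). In both genes every NDMA animal was below every control, as in 37.2% of all features above a signal of 5. The flavoprotein Sdha was at -0.15 ± 0.08 without overlap, and the second anchor Sdhd at -0.14 ± 0.08 with overlap.

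Complex III, the cytochrome bc1 complex, held the 3 members with the smallest p-values, and had a median of -0.22 with 8 of 8 below 0 (7 of 8 with quantile normalisation). Uqcrfs1, the Rieske iron-sulphur protein, read 6.03, 6.04 and 5.98 in controls and 5.73, 5.65 and 5.78 after NDMA (-0.29 ± 0.08, limma adjusted p = 0.129). The control values lay within a narrow band well above all NDMA values, and the difference was -0.28 on slide 1 alone and -0.22 with quantile normalisation. It was the 1 member past the threshold (adjusted p = 0.0495) when the variance was modelled with a trend and robustly, a setting in which 1234 features passed (3.87%). The core protein Uqcrc1 read 5.62, 5.59 and 5.43 against 5.36, 5.11 and 5.23 (-0.31 ± 0.10, adjusted p = 0.192), and its second probe gave -0.25. The small subunit Uqcr10 read 8.10, 8.18 and 8.02 against 7.89, 7.88 and 7.80 (-0.24 ± 0.08, adjusted p = 0.198), and the hinge protein Uqcrh 6.45, 6.47 and 6.44 against 6.33, 6.20 and 6.22 (-0.20 ± 0.08, adjusted p = 0.235). Groups did not overlap in any of these 4 genes, which were named for the smallest p in the complex. NDMA was lower without overlap in 5 of the 8 genes, against 16.5% of all features and 37.2% of those above a signal of 5. Groups overlapped in the other core protein, Uqcrc2 (-0.07 ± 0.08), in Uqcrb (-0.11 ± 0.11) and in Uqcrq (-0.04 ± 0.18), whose single kept probe varied from 0.10 to -0.59 among NDMA animals. Uqcrc1 was at -0.24, Uqcr10 at -0.05 and Uqcrh at -0.10 with quantile normalisation. On slide 1 alone Uqcrc1 was at -0.18, Uqcr10 at -0.21 and Uqcrh at -0.13.

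Complex IV, the cytochrome c oxidase, had 12 of 16 members below 0 and a median of -0.13. Its 4 smallest p-values were in forms that most tissues use. Cox4i1, the regulatory subunit of most tissues, read 7.63, 7.69 and 7.65 in controls and 7.51, 7.41 and 7.37 after NDMA (-0.23 ± 0.08, limma adjusted p = 0.205). Cox8a read 8.12, 8.15 and 8.02 against 7.96, 7.75 and 7.82 (-0.25 ± 0.09, adjusted p = 0.225), and Cox6a1, the liver-type form, 8.61, 8.72 and 8.59 against 8.52, 8.36 and 8.34 (-0.24 ± 0.09, adjusted p = 0.229). NDMA animals were below all controls in these 3 genes, as in 37.2% of all features above a signal of 5. Over all features the median difference was -0.14 at signals of 7 to 8 and -0.23 above 8. With quantile normalisation Cox4i1 was at -0.11, Cox8a at -0.05 and Cox6a1 at -0.01. Cox5b, a zinc-binding subunit, overlapped by NDMA animal 1 (7.65, 7.79 and 7.56 against 7.58, 7.34 and 7.36; -0.24 ± 0.11, adjusted p = 0.295).

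Other members are forms known from particular tissues or conditions. Cox4i2, the form of lung and oxygen-sensing cells, was at -0.03 ± 0.09 with overlapping groups (2.63, 2.75 and 2.66 against 2.55, 2.75 and 2.64). The muscle forms Cox6a2 and Cox8b were at 0.02 ± 0.09 and 0.09 ± 0.22, also overlapping. Cox6a2 is the gene whose probes differed most: its probes gave 0.02, 0.06 and 1.07, and the third read -3.57, -3.59 and -4.04 in controls and -2.74, -2.23 and -3.02 after NDMA (1.07 ± 0.23, limma adjusted p over the 43118 probes = 0.0727). All NDMA animals were above all controls in that probe, and in neither of the other probes. Of the 6 striated muscle markers measured of 8 listed, 1 rose, the troponin Tnnt3 (0.68 ± 0.11, limma adjusted p = 0.0337), and none rose under 11 of the 17 alternative settings. The summed level of these 6 was 3.60 to 3.86 times the 75th percentile in controls and 4.05 to 5.53 after NDMA, and their part in the Cox6a2 value was not tested. Myh6 and Myl1 were not well above background in all animals of either group. For Cox7a1, a further muscle form, no probe was matched by name.

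Cox5a and Cox7a2l were the other complex IV members above 0. Cox5a, a nuclear subunit of all tissues, read 6.76, 6.82 and 6.38 in controls and 6.83, 6.81 and 6.69 after NDMA (0.12 ± 0.13, limma adjusted p = 0.653). Control animal 3 was below the other animals, and was also the lowest in a second Cox5a probe (6.63, 6.76 and 6.37 against 6.69, 6.65 and 6.65). Cox7a2l, which joins complexes III and IV in supercomplexes, was at 0.005 ± 0.09.

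The ATP synthase had 15 of 15 members below 0 (12 of 15 with quantile normalisation) with a median of -0.18. Groups did not overlap, with NDMA lower, in 10 of the 15, against 16.5% of all features and 37.2% of those above a signal of 5. Among the subunits of its catalytic F1 head and central stalk, Atp5f1a (alpha) read 8.94, 8.99 and 8.87 in controls and 8.79, 8.63 and 8.60 after NDMA (-0.26 ± 0.09, limma adjusted p = 0.206). Atp5f1d (delta) read 5.43, 5.42 and 5.35 against 5.21, 4.93 and 5.23 (-0.28 ± 0.11, adjusted p = 0.235), and Atp5f1c (gamma) 6.05, 6.03 and 5.92 against 5.86, 5.67 and 5.78 (-0.23 ± 0.09, adjusted p = 0.237). Every NDMA animal was below every control in these 3. Atp5f1b, the catalytic beta subunit, overlapped because control animal 3 was low (6.52, 6.56 and 6.17 against 6.27, 6.11 and 6.38; -0.17 ± 0.14, adjusted p = 0.536). In the membrane part and peripheral stalk, Atp5mg was at -0.21 ± 0.09 (adjusted p = 0.274), Atp5po, the oligomycin sensitivity protein, at -0.19 ± 0.08 and Atp5pf, coupling factor 6, at -0.04 ± 0.08. The c-ring genes Atp5mc1 and Atp5mc2 were at -0.14 ± 0.08 and -0.19 ± 0.09. Atp5if1, which inhibits the enzyme when it runs backwards, was at -0.15 ± 0.10. With quantile normalisation Atp5f1a was at -0.02.

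Assembly factors had the median nearest to 0. Of the 8, 6 were below 0 with a median of -0.08. They were less bright than most members, with control means from -0.52 (Ndufaf1) to 4.77 (Sdhaf2). Over all features the median difference was -0.03 at signals of -2 to 0, -0.06 at 2 to 4 and -0.07 at 4 to 5. The part of signal strength in the median of the assembly factors was not tested. Ndufaf7, a methyltransferase that acts in complex I assembly, read 0.05, 0.11 and -0.06 in controls and -0.19, -0.15 and -0.16 after NDMA (-0.20 ± 0.08, limma adjusted p = 0.265). Ndufaf4 was at 0.06 ± 0.07, and Sdhaf1, which helps insert iron-sulphur clusters into Sdhb, at 0.12 ± 0.24 with control animal 3 at 3.54 against 4.27 and 4.44 in the other controls. The members above 0 were thus Ndufaf4, Sdhaf1, Cox5a, Cox6a2, Cox7a2l and Cox8b. Of these, Cox7a2l was below 0 with median scaling (-0.01) and with slide as a block or slide 1 alone (-0.03). Cox6a2 was below 0 with normexp (-0.10). The lowest value when an animal was left out was -0.05 for Cox6a2 and -0.14 for Cox8b.

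Probes of the same gene mostly had the same direction. Of the 44 genes with more than 1 kept probe, 41 had all probes on the same side of 0, and of the 147 probes 131 were below 0 (89.1%) and 0 passed the threshold over all probes (background 2.99%). Besides Cox6a2, the widest spread was in Cox6b2, the testis form, where the less bright probe gave 0.39 and the brighter -0.13. In Ndufc2 the less bright probe gave 0.05 and the brighter -0.12.

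**Figure D4:**
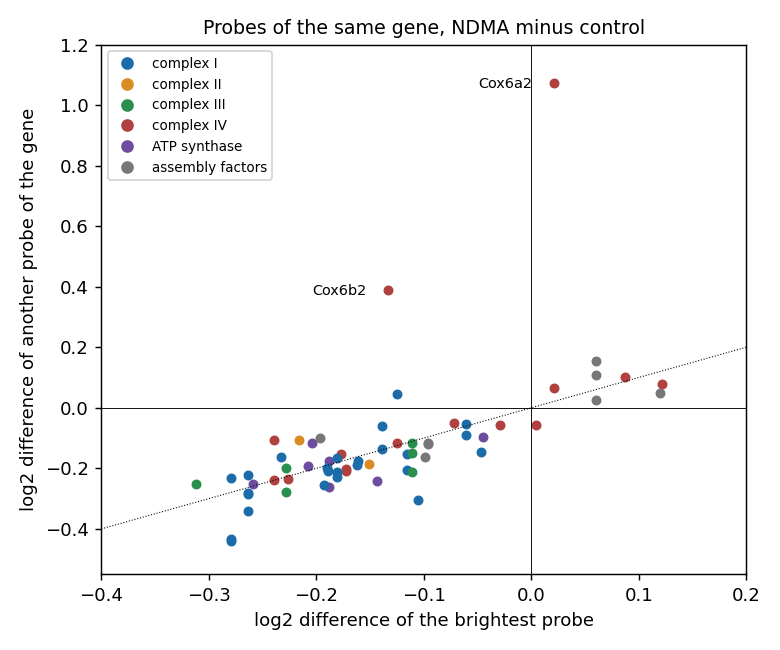
Log2 difference of each further probe of a gene (y axis) against that of its brightest probe (x axis), for the 44 members with more than 1 kept probe, coloured by complex, with the line of equality dotted. Most probes lie below 0 on both axes, and a Cox6a2 probe at 1.07 and a Cox6b2 probe at 0.39 stand away from the line.

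Other genes of mitochondrial energy metabolism, from lists, had like directions with 0 called in most lists. The citric acid cycle and pyruvate dehydrogenase list had 17 of 17 genes below 0 with a median of -0.25 and 0 called. Suclg2, a succinyl-CoA ligase subunit, came nearest to the threshold (5.27, 5.21 and 5.14 against 4.85, 4.69 and 4.77; -0.44 ± 0.09, limma adjusted p = 0.0559), while citrate synthase, Cs, was at -0.04 ± 0.08. Electron carriers and other electron donors had 15 of 17 below 0 with a median of -0.18 and 0 called: cytochrome c, Cycs, was at -0.32 ± 0.10 (adjusted p = 0.157), and the sulphide oxidase Sqor at 0.30 ± 0.11 (adjusted p = 0.21). Assembly factors with other symbols had 32 of 33 below 0 with a median of -0.14, the mitochondrial ribosome 57 of 66 with a median of -0.10, and 0 were called in either list. At an unadjusted p under 0.05 in limma each of these 4 lists had 7 genes, all lower except Sqor, which is 41.2%, 41.2%, 21.2% and 10.6% of the lists in this order, against 18.8% of all features. With quantile normalisation the medians of these 4 lists were -0.17, -0.13, -0.10 and -0.05. Suclg2, Cs, Cycs and Sqor were chosen after their values were seen.

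Regulators of mitochondrial biogenesis had 11 of 17 genes below 0, a median of -0.07 and 0 called by limma. Their differences ranged from -0.24 to 0.35. At an unadjusted p under 0.05 in limma there were 4 (23.5%, 3 lower and 1 higher), against 18.8% of all features. Ppargc1a, Nrf1, Gabpa and Tfam, given next, were not among these 4. Ppargc1a, the coactivator PGC-1 alpha, read -0.68, -0.75 and -0.40 in controls and -0.75, -0.64 and -0.39 after NDMA (0.02 ± 0.14, limma adjusted p = 0.962), with groups that overlapped. Nrf1 was at -0.02 ± 0.10, Gabpa at 0.003 ± 0.09 and Tfam, which packs and transcribes mitochondrial DNA, at -0.04 ± 0.08. Among uncoupling proteins and carriers, 1 of 5 rose and none fell. Ucp2, an inner membrane carrier also known from macrophages, read -0.84, -0.69 and -0.40 in controls and 0.21, -0.01 and 0.29 after NDMA (0.80 ± 0.14, 1.75-fold, adjusted p = 0.0409). Its groups did not overlap. It missed the threshold under 9 of the 17 alternative settings. The adenine nucleotide carriers Slc25a4 and Slc25a5 were at -0.25 ± 0.09 and -0.16 ± 0.09.

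**Figure D5:**
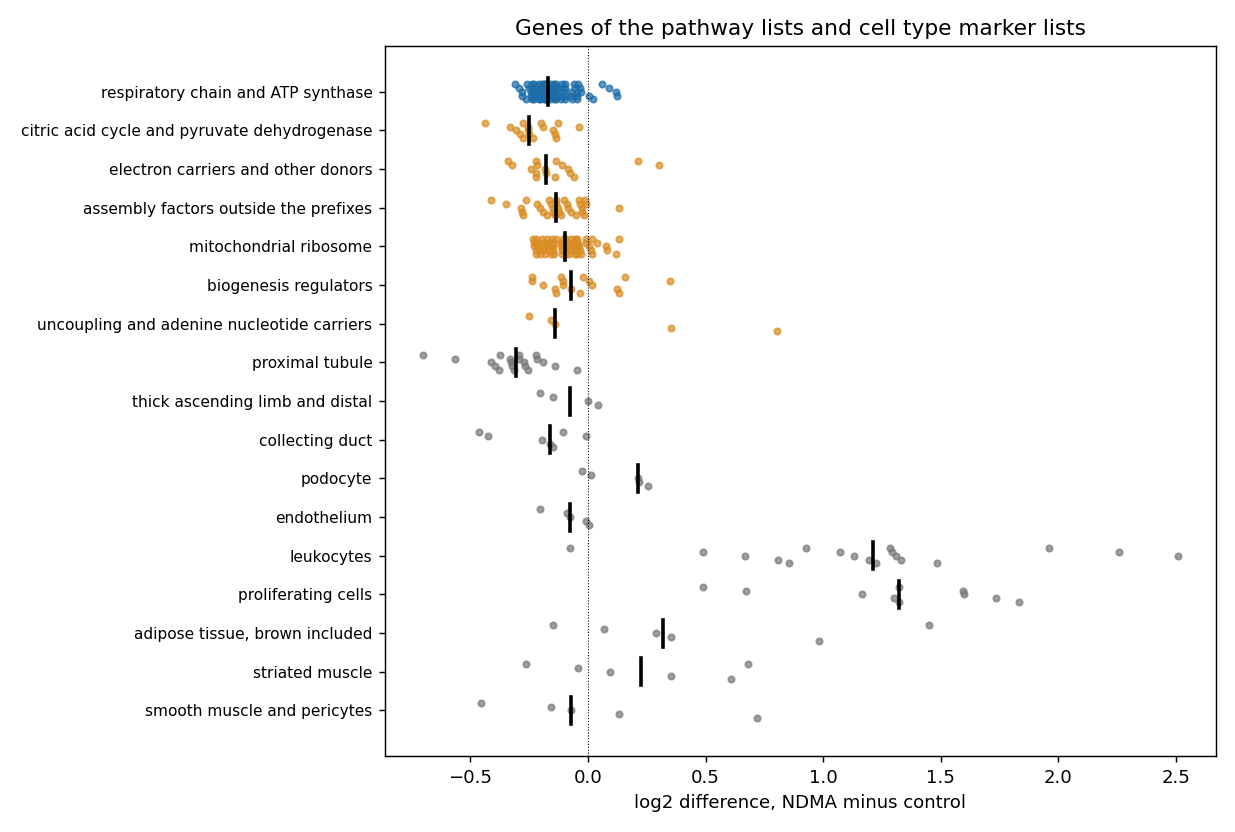
Log2 difference between NDMA and control (x axis) of each measured gene in the respiratory chain and ATP synthase, in the lists of other mitochondrial genes and in the cell type marker lists, with a bar at each list's median. The members centre on -0.17, the proximal tubule markers on -0.30 and the leukocyte markers on 1.21.

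Markers of the cells in the cortex moved as well. In bulk tissue, fewer cells of a type and less RNA per cell cannot be told apart. All 20 proximal tubule markers were measured and below 0, with a median of -0.30; 1 fell, the endocytic receptor megalin, Lrp2 (-0.57 ± 0.10, limma adjusted p = 0.0448). None fell under 12 of the 17 alternative settings, quantile normalisation, slide as a block and leaving out any animal among them. The summed level of these markers, led by the brightest probes, was 3894 to 4554 times the 75th percentile in controls and 3137 to 3563 after NDMA. With quantile normalisation the proximal tubule median was -0.17, with 19 of 20 below 0. Of 18 leukocyte markers 15 rose, with a median of 1.21 and a summed level of 97.5 to 131 in controls and 257 to 281 after NDMA, among them the T cell gene Cd3e (2.51 ± 0.34, adjusted p = 0.0192) and the macrophage gene Cd68 (1.48 ± 0.14, adjusted p = 0.00742). Of 10 proliferation markers 7 rose, with a median of 1.32. With slide as a block 0 of either list were called, where 59 features were called higher and 8 lower over the whole array. In that setting 16 of 18 leukocyte and 8 of 10 proliferation markers had an unadjusted limma p under 0.05, against 10% of all features. The medians of the 2 lists were 1.16 and 1.08 there and on slide 1 alone, both resting on NDMA animal 1. Leaving out an animal left 10 to 13 leukocyte and 2 to 6 proliferation markers called. None of the 4 thick ascending limb, 7 collecting duct, 5 podocyte, 5 endothelial, 5 smooth muscle or 6 adipose markers measured passed limma's threshold, and at an unadjusted p under 0.05 there were 2 collecting duct, 2 smooth muscle and 1 adipose marker. The part of these markers in the differences of the members and of Ucp2 was not tested.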

How the data were processed

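Renal cortex RNA of 6 rats was measured on 1-colour Agilent arrays. The authors read the spots with Agilent Feature Extraction, for which the submitters' processing notes give version 10.7 and the file headers 10.7.1.1. Processed intensities were deposited with the array's own background removed and without scaling across arrays, per the file headers. Median signal and background intensities were also deposited, as raw pixel values. The deposited value table is on a linear scale: each value was the ratio of the processed signal to its array's 75th percentile, and the columns had medians of 0.110 to 0.115.

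Processed signals were taken to log2 and reduced by the 75th percentile over the 61657 non-control probes. Outlier-flagged spots were set missing (18 values among tested probes, 0 among members). The detection rule kept 43118 probes, and the brightest probe stood for its gene. Names came from RefSeq (assembly GRCr8) by accession without version, which matched 27348 of 29123 NM accessions. Of 122 protein-coding genes with such symbols in that table, 38 had no probe matched.

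Groups, taken from the sample titles, were compared in R 4.3.3 by limma 3.58.1, with lmFit, then eBayes (residual degrees of freedom 4, prior 2.36) and two-sided tests. Each replicate was its own animal, as the series' design text states. The fit was checked on simulated data. The number of arrays limits the precision. Intervals are 95% intervals from the moderated fit.

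The members and lists were chosen with earlier results of these data known. Named genes were those past the threshold, the 4 with the smallest p in each complex, 10 genes always (Ndufs1, Sdha, Uqcrc1, Cox4i1, Cox4i2, Cox6a2, Cox7a1, Cox8b, Atp5f1b and Ppargc1a) and list members past the threshold. The values of 1 member are not reported here. Others were named after their values were seen, to describe the rest of a complex. Alternatives were other scalings, normexp (offset 50, on median signal because the files hold no mean signal), filters on dim probes, the mean over probes, another variance model, slide, replicate number, the authors' table and leaving out each animal.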

Additional observations from a re-analysis of the deposited data

How the results depend on the processing

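Over the 17 alternatives the count of members past the threshold was 0, except for 1 (Uqcrfs1) with trended and robust variance, and the median over all members stayed below 0. With quantile normalisation the medians were -0.0669 for all members, -0.0856, -0.0984, -0.0755 and -0.0366 for complexes I, II, III and IV, and -0.0555 for the ATP synthase. With slide as a block and with slide 1 alone, which rest on the same NDMA animal, they were -0.0932 for all members and -0.104 for the ATP synthase. For complexes I, II, III and IV they were -0.105, -0.0948, -0.109 and -0.0878. Leaving out each animal gave -0.205 to -0.140 over all members and 74 to 82 members below 0. Over all features the number called was 371 without the filter, which tests more features, 67 with slide as a block, 0 on slide 1 alone (3502 at an unadjusted p under 0.05, where 1 NDMA animal is assumed to vary like the controls), and 364 to 749 when an animal was left out: 749 without NDMA animal 1, 458 and 367 without NDMA animals 2 and 3, and 364, 520 and 505 without control animals 1, 2 and 3. The cause was not tested.

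Differences near 0 changed sign. Ppargc1a was at -0.0031 with median scaling, -0.0809 with normexp and -0.143 with slide as a block and slide 1 alone, Cox4i2 at 0.0055 with quantile normalisation, and Cox6a2 at -0.103 with normexp. Leaving out an animal gave -0.0868 to 0.118 for Ppargc1a, -0.0463 to 0.0781 for Cox6a2, -0.0812 to 0.0191 for Cox4i2 and -0.137 to 0.251 for Cox8b. Deviations from the group means correlated across genes at 0.0386, -0.0481 and 0.0257 between animals of the same replicate number. Between animals of different numbers they ran from -0.0979 to 0.0751. These values show no pairing by number, and with 3 animals a group they cannot exclude one. A replicate block gave 351 features called and 0 members. The small number of animals limits what can be detected.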
